A study of Mus musculus with 16 samples.

Results

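Freed terminal loops of miRNA hairpins were searched for in 16 small RNA libraries of mouse mesenchymal stem cells (MSCs). A loop insert was a read of 10 to 24 nt, after removal of the 3′ adapter, that matched a single GENCODE mouse Mir hairpin without mismatch and had its centre within 4 nt of the hairpin midpoint. The rule found 3589 inserts of 105 distinct sequences in 77 of 1174 hairpins. Of these, 2760 inserts of 36 sequences in 29 hairpins were 15 to 24 nt long, and the shorter matches were as a whole no more frequent than those to control sequences (below). The 29 hairpins therefore carry the description. The other 48 had inserts under 15 nt only, 1 to 175 each with a median of 9, and 36 of them were seen in 1 library.

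The libraries fall into 8 groups of 2, all from strain C57BL/6. WT cells were Dicer f/f and KO cells Dicer -/-, both transfected with the fluorescent protein mCherry. The other 6 groups were Dicer -/- cells transfected with human Dicer (hsDicer), with the single point mutants D1320A, D1709A or K70A, or with the double mutants D1320A/D1709A or Y971A/Y972A, so WT had mouse Dicer, these 6 groups the transfected human form, and KO neither. The labels number the 2 libraries of a group as replicates 1 and 2 but do not say whether they came from separate cultures or clones, and they give no transfection efficiency. RNA was cut from a gel at 15 to 50 nt. Reads were 41 nt long in each replicate 1 library and 51 nt long in each replicate 2 library, and an effect of read length and of replicate number cannot be told apart.

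Dicer releases a miRNA from its precursor hairpin by cutting both strands of the stem. Its RNase IIIA domain, which D1320A disables, cuts the strand that carries the 3p miRNA, and its RNase IIIB domain, which D1709A disables, cuts the strand that carries the 5p miRNA. When both cuts are made, the single-stranded loop and the stem bases next to it are set free between the arms and are normally degraded quickly. K70A changes the helicase domain at the loop side of the hairpin, and Y971A/Y972A changes the PAZ pocket that anchors the precursor's open end.

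The sequences below carry the findings. Each runs from the first base of the 5p arm to the last base of the 3p arm as RefSeq (GRCm38.p6) lists them, with the loop insert in capitals and the rest of the arms and loop in lower case. The first 5 inserts lay on or within 1 nt of both arm ends, and the next 7 began on the base after the 5p arm but ended before or after the last base of the loop. The last 2 began inside the 5p arm and ended inside the 3p arm.
Mir27a: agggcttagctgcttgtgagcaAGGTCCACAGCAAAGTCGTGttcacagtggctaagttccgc
Mir34a: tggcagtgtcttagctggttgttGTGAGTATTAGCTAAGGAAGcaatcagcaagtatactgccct
Mir33: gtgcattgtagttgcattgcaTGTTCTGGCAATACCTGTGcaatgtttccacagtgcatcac
Mir96: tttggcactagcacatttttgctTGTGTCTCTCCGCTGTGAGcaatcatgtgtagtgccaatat
Mirlet7e: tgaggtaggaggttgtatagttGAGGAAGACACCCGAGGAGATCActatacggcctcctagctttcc
Mirlet7c-2: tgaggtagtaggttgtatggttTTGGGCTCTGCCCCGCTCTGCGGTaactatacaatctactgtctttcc
Mirlet7a-1: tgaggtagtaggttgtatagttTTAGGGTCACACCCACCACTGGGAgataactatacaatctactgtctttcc
Mirlet7c-1: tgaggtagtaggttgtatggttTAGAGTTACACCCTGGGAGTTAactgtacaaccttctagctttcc
Mirlet7g: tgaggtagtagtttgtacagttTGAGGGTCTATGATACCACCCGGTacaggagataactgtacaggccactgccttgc
Mir28a: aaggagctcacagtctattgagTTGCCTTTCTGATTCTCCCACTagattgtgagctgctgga
Mir16-1: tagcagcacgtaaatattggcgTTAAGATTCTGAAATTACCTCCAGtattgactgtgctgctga
Mir872: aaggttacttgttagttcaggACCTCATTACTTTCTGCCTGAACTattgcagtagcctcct
Mir99a: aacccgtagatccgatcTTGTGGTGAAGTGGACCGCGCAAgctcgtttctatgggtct
Mir21a: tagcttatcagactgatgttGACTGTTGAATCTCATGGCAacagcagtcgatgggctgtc
Mirlet7c-1 and Mirlet7c-2 have the same 5p arm but different loops, so a loop insert names its hairpin where the mature 5p miRNA cannot.

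The chance level was measured first, because short inserts match somewhere by chance. Over 10 to 14 nt, 829 inserts lay at hairpin centres, against 1017 when the same rule was applied to the hairpin letters reversed and 1079 on the opposite strand. Counted as a sequence in a library, these were 102 matches to the hairpins, 99 to the reversed and 62 to the opposite-strand sequences, and 63.9 were expected if all sequences of a length were equally frequent. At 10 nt the hairpins held fewer inserts (305) than either control (742 and 951). At 13 to 14 nt they held 165 inserts against 10 and 43, or 21 library and sequence matches against 4 and 4, with 160 inserts and 2.02 matches expected, so at these lengths the hairpins stood above both controls. Over 15 to 24 nt the hairpins held 2760 inserts as 48 library and sequence matches, against 104 inserts (7 matches) and 116 inserts (10 matches) in the controls, with 21.2 inserts and 0.228 matches expected. All opposite-strand inserts of this range were 15 to 18 nt long, where the hairpins held 135 inserts in 6 matches against 116 in 10, so hairpin inserts of 17 and 18 nt, such as those of Mir149, Mir181b-1 and the short form of Mir33, were not clearly above that control. At 19 nt the hairpins held 371 inserts in 10 matches, the reversed sequences 90 in 2 and the opposite strand none. From 20 to 24 nt the reversed sequences held 3 inserts, all at 21 nt, and the opposite strand none.

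**Figure D1:**
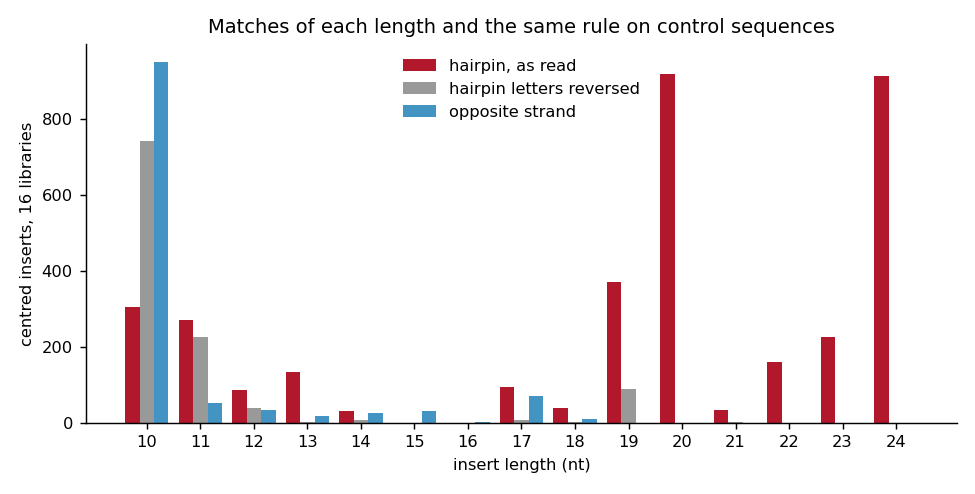
Inserts centred on a hairpin, summed over 16 libraries, by insert length in nt (x axis), for the hairpins as read (red), the hairpin letters reversed (grey) and the opposite strand (blue). At 10 nt the controls (742 and 951) exceed the hairpins (305), whereas 920 inserts of 20 nt and 913 of 24 nt stand against 0 in both controls.

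The inserts of 15 nt or more did not spread evenly over lengths. None was 15 or 16 nt long, 95 were 17 nt, 40 were 18 nt, 371 were 19 nt, 920 were 20 nt, 34 were 21 nt, 160 were 22 nt, 227 were 23 nt and 913 were 24 nt. The 649 hairpins with both arms in RefSeq have a median of 16 nt between the arms (range 3 to 67), 357 of them (55.0%) with a loop that is 15 to 24 nt long and centred within 4 nt. The gel range begins at 15 nt, so the 217 loops under 15 nt lay below it. An insert with both ends within 1 nt of the RefSeq arms, at any length from 10 to 36 nt, was found for 10 of 372 hairpins with loops of 15 to 24 nt and for 3 of 44 with loops of 25 to 36 nt. It was found for 1 of 204 with loops of 10 to 14 nt (Mir7054, 33 inserts of 11 nt).

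Freed loops were rare. The 16 libraries held 245866946 inserts of 15 nt or more (10331036 to 20502254 a library) and 40121079 inserts of miRNA arms, or 14537 arm inserts for each loop insert of 15 to 24 nt. Of the 48 library and sequence matches, 10 had 1 to 3 inserts (15 inserts together), 1 had 4 to 9 and 37 had 10 or more, up to 418. Of the 36 sequences, 28 were seen in 1 library and 8 in 2 or more. The reads carry no molecular identifiers, so inserts of the same sequence in a library are not independent molecules, and all intervals below cover counting error only.

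WT replicate 1 held 0 loop inserts of 15 to 24 nt and WT replicate 2 held 324, which is 15.8 CPM (inserts per 1000000 inserts of 15 nt or more). KO held 0 and 2, hsDicer 0 and 110 (5.86 CPM), and K70A 0 and 5 (0.360 CPM). D1320A held 636 and 439, or 42.1 and 36.1 CPM, with a mean of 39.1 ± 4.28 (SD, n = 2). D1709A held 163 (12.7 CPM) and 0, the D1320A/D1709A double mutant 0 and 0, and Y971A/Y972A 1 (0.0566 CPM) and 1080 (66.2 CPM). A count of 0 allows up to 3 inserts, or 0.146 to 0.290 CPM across the libraries. D1320A was the only group in which both libraries held more than 3 such inserts, and outside D1320A and D1709A a replicate 1 library held 1 insert in all. In all, the replicate 1 libraries held 800 and the replicate 2 libraries 1960.

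**Figure D2:**
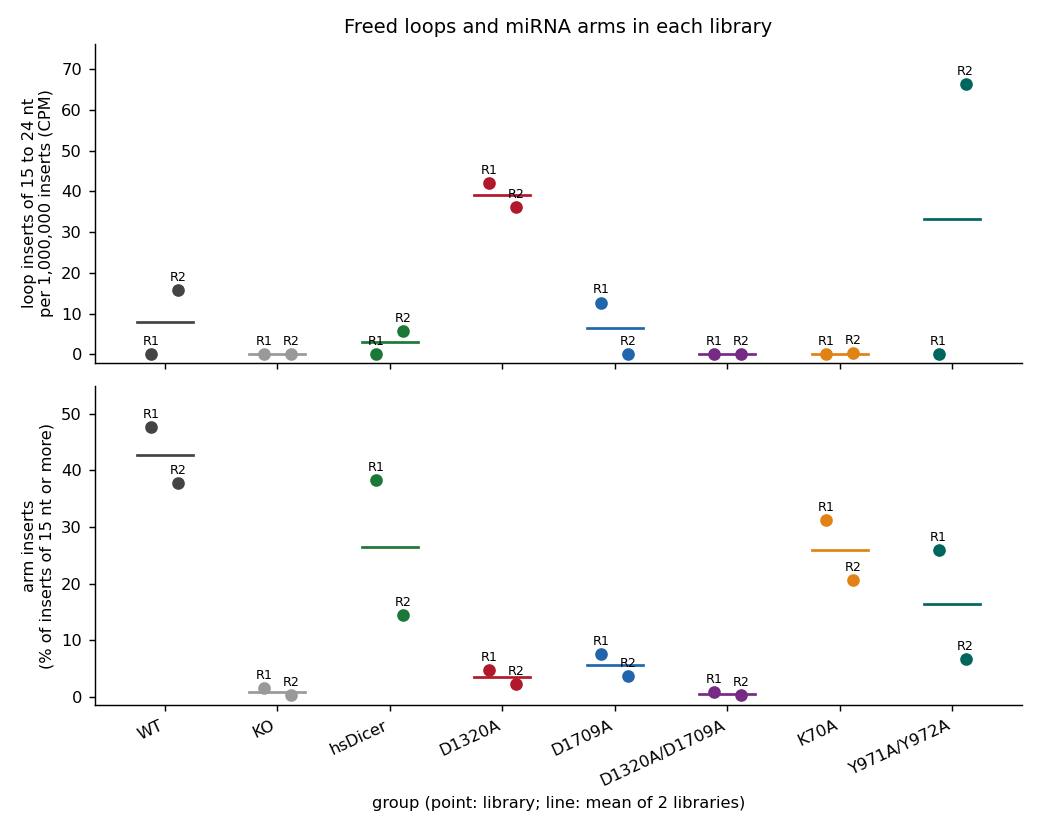
Loop inserts of 15 to 24 nt in CPM (top) and arm inserts as % of inserts of 15 nt or more (bottom) in each library (points, R1 and R2 for replicates 1 and 2), with the mean of the 2 libraries as a line. D1320A has 42.1 and 36.1 CPM of loop inserts, while Y971A/Y972A has 0.0566 and 66.2.

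Arm inserts served as the check of the labels and as the yardstick for loops. They made up 47.7% and 37.8% of inserts in WT, 1.55% and 0.295% in KO, 38.3% and 14.5% in hsDicer, and 0.789% and 0.359% in the D1320A/D1709A double mutant. The 6 mesenchymal marker hairpins (the miR-199, miR-214, miR-143 and miR-22 genes) gave 192645 and 122914 CPM of arm inserts in WT, against 0 and 0.780 for the 5 blood, 0 and 55.7 for the 6 neuronal, 0.231 and 112 for the 5 muscle and 66.0 and 298 for the endothelial marker hairpins. Those of pluripotent cells and liver were at 0 in both WT libraries. Replicate 2 libraries also held more kinds of inserts: arm inserts of 368 hairpins in WT replicate 2 against 178 in replicate 1, 335 against 181 in hsDicer and 286 against 182 in Y971A/Y972A, but 256 against 284 in D1320A. Inserts of 15 to 17 nt made up 0.395% and 1.70% of reads in WT, 5.04% and 6.44% in D1320A, 7.57% and 5.90% in D1709A, and 1.09% and 7.86% in Y971A/Y972A. Their part in the loop counts was not tested.

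Groups were compared by the level over all loop inserts of 10 to 24 nt. D1320A (42.7 and 52.6 CPM) did not overlap hsDicer (0.208 and 7.40) or KO (0.0968 and 4.26), and in each case the 2-sided exact permutation test gave p = 0.333, the smallest that 2 libraries against 2 allow. The other 9 comparisons overlapped, each with an exact permutation p of 0.667 or 1. Within each replicate number, KO and hsDicer (0.208 and 7.40) lay below WT (0.289 and 16.9) and hsDicer above KO, with 1 library a group and so no test. In replicate 1 these levels stood for 5 inserts in WT, 1 in KO and 3 in hsDicer, all under 15 nt. The order in replicate 1 therefore carries no weight. At 15 to 24 nt the means of D1320A, hsDicer and KO were 39.1, 2.93 and 0.0626 CPM, again without overlap. Benjamini-Hochberg adjustment over 11 comparisons cannot bring any of these p-values under 0.05, so no group difference in loop level passed a test.

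Loops were also set against the arm inserts of all 77 hairpins with a loop insert of 10 to 24 nt. These arm inserts numbered 1494962 and 572012 in hsDicer, 234797 and 83090 in D1320A, and 39239 and 16836 in D1709A. In Y971A/Y972A they numbered 663338 and 181873. Loops per 1000 arm inserts can therefore be higher because arms are fewer as well as because loops are more. On this measure, loops of 15 to 24 nt numbered 2.71 and 5.28 per 1000 in D1320A, 4.15 and 0 in D1709A, 0 and 0.202 in WT, 0 and 0.192 in hsDicer, 0 and 0.0986 in KO, 0 and 0.0102 in K70A, and 0.00151 and 5.94 in Y971A/Y972A. At these lengths D1320A did not overlap hsDicer or KO (exact permutation p = 0.333 for each), but over 10 to 24 nt D1320A (2.75 and 7.70) overlapped KO (0.0273 and 3.35, exact permutation p = 0.667). WT replicate 2 and hsDicer replicate 2 lay close to each other, at 0.202 and 0.192, and K70A replicate 2 below both, at 0.0102, but with 0 in each of the replicate 1 libraries these groups overlapped. At 10 to 24 nt D1709A (5.28 and 2.26 per 1000) also stood above hsDicer without overlap (exact permutation p = 0.333), but in its replicate 2 library all 38 inserts were shorter than 15 nt.

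Loop counts per hairpin were also tested with edgeR, in a fit over 652 features (618 arms and 34 loops with 20 or more inserts). None of the 34 loops passed an adjusted p of 0.05 in any of the 11 comparisons, none had an unadjusted p under 0.05, and the smallest adjusted p ran from 0.540 (KO against WT) to 1. DESeq2 called 2 loops in D1709A against hsDicer (Mir99a, higher, and Mir218-1, lower and with inserts under 15 nt only), the same 2 in D1709A against KO, and Mir351, higher and likewise short, in the double mutant against hsDicer. Over all arms and loops, edgeR called 4.45% in KO against WT, 4.91% in hsDicer against KO, 1.69% in D1320A, 2.91% in D1709A and 6.75% in the double mutant against hsDicer. It called 0.613% in D1320A and 0.46% in D1709A against KO, and 0% in hsDicer against WT, in K70A and in Y971A/Y972A against hsDicer, and in the double mutant against KO. The biological coefficient of variation of the fit was 2.17, and 25 of the 34 loops were at 0 in all but 1 or 2 libraries, so the counts below are a description.

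**Figure D3:**
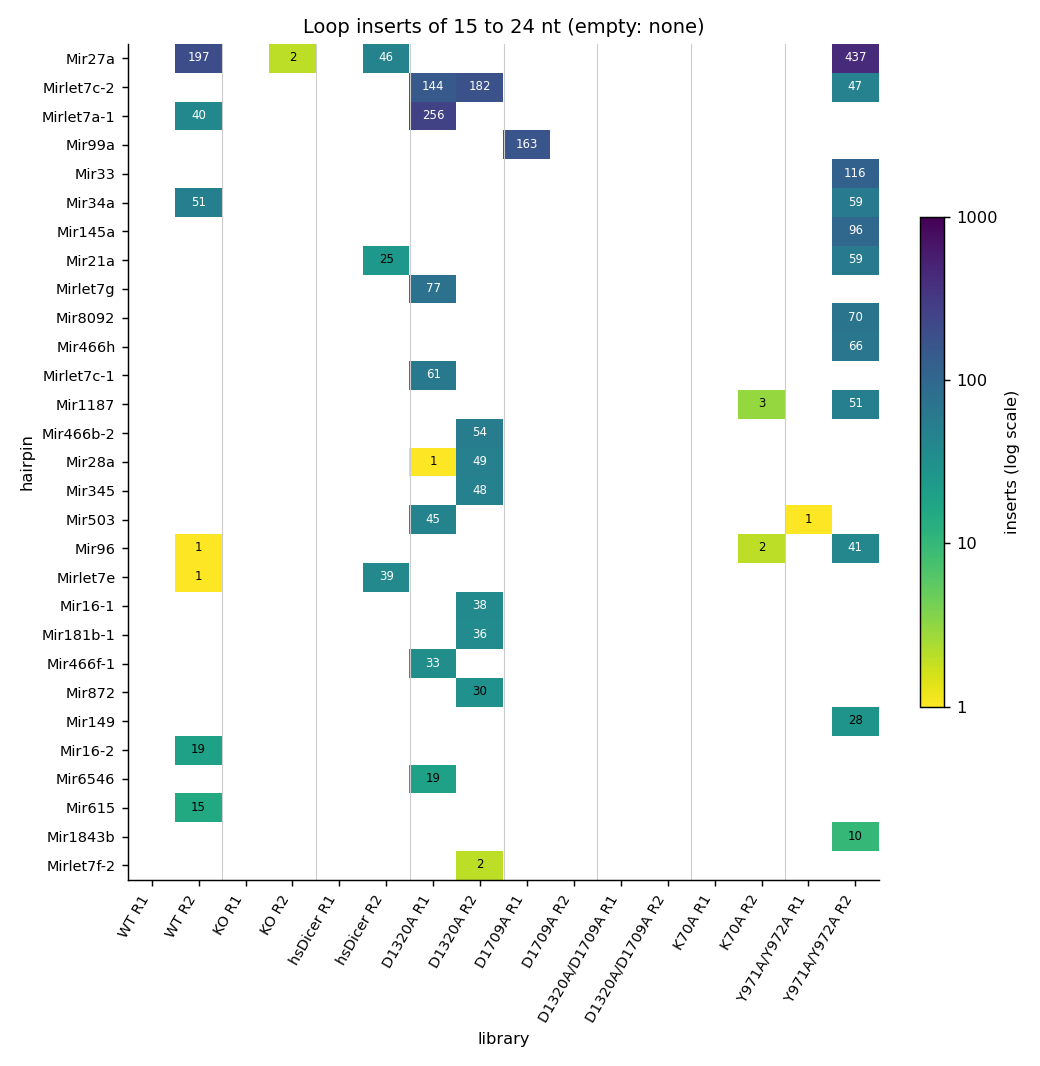
Loop inserts of 15 to 24 nt of 29 hairpins (rows) in 16 libraries (columns), colour on a log scale with the count printed and empty cells for none. Mir27a fills WT, KO, hsDicer and Y971A/Y972A replicate 2 (197, 2, 46 and 437), whereas Mirlet7c-2 fills both D1320A libraries (144 and 182).

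Mir27a, whose miRNA is known to restrain fat cell differentiation and is made together with miR-23a and miR-24, gave the most loop inserts. Its 20 nt insert lies at chr8:84208707-84208726 (GRCm38, plus strand), outside any other annotated gene on that strand, and its ends fell exactly on the base after the 5p arm and the base before the 3p arm. It was read 197 times in WT replicate 2, 2 times in KO replicate 2, 46 times in hsDicer replicate 2 and 418 times in Y971A/Y972A replicate 2, and in no other library. A form of 19 nt that lacks the first base was read 19 times in Y971A/Y972A replicate 2. These were 16.2 loops per 1000 Mir27a arm inserts in WT replicate 2, 33.9 in KO replicate 2 (2 loops beside 59 arm inserts), 21.5 in hsDicer replicate 2 and 142.8 in Y971A/Y972A replicate 2.

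WT replicate 1 held 0 of these loops beside 6609 Mir27a arm inserts, and D1320A held 0 in both libraries beside 13529 and 4660. The arms of Mir27a differed between the catalytic mutants. The 5p arm had 13486 and 4580 inserts in D1320A and the 3p arm 43 and 80, whereas in D1709A the 5p arm had 10 and 13 and the 3p arm 140 and 31. In hsDicer the 5p arm had 4652 and 1644 and the 3p arm 146 and 494.

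Mir34a, a miRNA induced by p53, showed a like insert of 20 nt (chr4:150068496-150068515, plus strand, no host gene). It started 1 nt after the base that follows the 5p arm and ended 1 nt before the end of the loop, so it was 2 nt shorter than the 22 nt between the arms. It was read 51 times in WT replicate 2 and 58 times in Y971A/Y972A replicate 2, and a form of 18 nt was read once in the latter. Its arms had 2718 inserts in WT replicate 2 and 70 in Y971A/Y972A replicate 2, so loops numbered 18.8 and 843 per 1000 arm inserts. Arm and loop thus moved differently between these 2 libraries.

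The hairpins named from here to the end of this paragraph, except Mir33, were chosen after their values were seen. Mirlet7e, of the let-7 family that restrains growth, gave a 23 nt insert with both ends exact (chr17:17830388-17830410, in an intron of Spaca6), read 39 times in hsDicer replicate 2 and 1 time in WT replicate 2. Mir96, of the sensory miR-183 cluster, gave a 19 nt insert with both ends on the RefSeq arms (chr6:30169487-30169505, minus strand), read 41 times in Y971A/Y972A replicate 2, 2 times in K70A replicate 2 and 1 time in WT replicate 2. Mir33, which lies in an intron of the sterol regulator gene Srebf2 and targets cholesterol export, gave an exact 19 nt insert (chr15:82198148-82198166), read 54 times, and a form 2 nt shorter at its 3′ end, read 62 times, both in Y971A/Y972A replicate 2. Mir615 in an intron of Hoxc5 gave an exact 21 nt insert, read 15 times in WT replicate 2, and Mir149 in an intron of Gpc1 an exact 17 nt insert on the RefSeq arms, read 28 times in Y971A/Y972A replicate 2. The exact inserts of these hairpins were thus in WT, hsDicer, K70A and Y971A/Y972A replicate 2 libraries, and none was in a D1320A, D1709A or double mutant library. Most of them were picked by their values. Over all loop inserts of 15 to 24 nt from hairpins with both RefSeq arms, 0 of 988 in D1320A and 0 of 163 in D1709A had both ends exact. The double mutant held 0 such inserts. Over the 23 hairpins with both RefSeq arms, D1320A held 265 and 175 inserts of 15 to 36 nt with both ends within 1 nt of the arms (17.5 and 14.4 CPM). WT replicate 2 held 284 (13.9 CPM), hsDicer replicate 2 held 85 (4.53 CPM) and Y971A/Y972A replicate 2 held 661 (40.5 CPM). Every other library held at most 2. All 265 and 175 D1320A inserts ended 1 nt before or past the end of the loop. In WT replicate 2 the 197 Mir27a inserts were exact, whereas 51 of Mir34a and 19 of Mir16-2 were not. All 85 in hsDicer replicate 2 were exact. D1320A also held 11117 and 2161 inserts that began within 1 nt of the loop's start but ended elsewhere. Such inserts numbered 83 in WT, 53 in hsDicer and 155 in Y971A/Y972A replicate 2.

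The let-7 family gave 849 inserts (30.8% of those of 15 to 24 nt) from 6 of its 12 hairpins. Mirlet7c-2 (insert at chr15:85706638-85706661, in an exon of the non-coding gene Lncppara) was read 144 and 182 times in D1320A and 47 times in Y971A/Y972A replicate 2. Its 24 nt insert began on the base after the 5p arm and ended 2 nt before the end of the loop. Mirlet7a-1 (chr13:48538215-48538238, minus strand, in an exon of 6720427I07Rik) was read 256 times in D1320A replicate 1, 40 times in WT replicate 2 and 0 times in D1320A replicate 2, and ended 5 nt before the end of the loop. These loops are 26 and 29 nt long, so a whole one is longer than the 24 nt limit.

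Mirlet7g in an intron of Wdr82 (77 inserts, chr9:106178868-106178891) and Mirlet7c-1 in an intron of Mir99ahg (61 inserts, chr16:77599694-77599715) were seen in D1320A replicate 1 alone. They ended 10 nt and 1 nt before the end of the loop. Mirlet7f-2 was read 2 times in D1320A replicate 2. Most let-7 loop inserts thus came from D1320A, with 40 in WT replicate 2, 47 in Y971A/Y972A replicate 2 and the Mirlet7e inserts as the rest.

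In 5 other hairpins seen in D1320A the insert began on or within 1 nt of the base after the 5p arm and ran past the start of the 3p arm. Mir28a in an intron of Lpp (22 nt, chr16:24827890-24827911) was read 1 and 49 times and reached 4 nt into the 3p arm. Mir16-1 (24 nt, 38 inserts, chr14:61631912-61631935, minus strand), whose miRNA restrains the cell cycle, also reached 4 nt into it, and Mir872 in an intron of Ift74 (24 nt, 30 inserts) 6 nt. Mir345 (22 nt, 48 inserts) began 1 nt later and reached 7 nt into it. The hairpins of Mir16-1 and Mir345 overlap an exon of Dleu2 and of Slc25a47, but no transcript of another gene holds their inserts. All of the 38, 30 and 48 inserts were in D1320A replicate 2. Mir503 (19 nt) was read 45 times in D1320A replicate 1 and 1 time in Y971A/Y972A replicate 1, and ended 1 nt past the loop. Mir16-1, Mir872, Mir345 and Mir503 were chosen after their values were seen.

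D1709A rested on a single hairpin. Mir99a, in an intron of Mir99ahg, gave 162 inserts of 23 nt (chr16:77598957-77598979) and 1 of 22 nt, all in D1709A replicate 1. The 23 nt insert began 5 nt before the end of the 5p arm and ended 3 nt inside the 3p arm, so it was longer at both ends than the 15 nt loop. The same library held 86 Mir99a arm inserts, 1 of the 5p and 85 of the 3p arm. D1709A replicate 2 had 83 and 131 arm inserts and 0 loops. The finding thus stands in 1 library.

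Mir21a, a growth-promoting miRNA in an exon of Vmp1, reached into both arms as well. An insert of 20 nt was read 59 times in Y971A/Y972A replicate 2 and ran from 2 nt inside the 5p arm to 2 nt inside the 3p arm, and an insert of 23 nt, read 25 times in hsDicer replicate 2, from 3 nt inside the 5p arm to 4 nt inside the 3p arm. Its arms had 56864 and 267998 inserts in these libraries, so loops numbered 1.04 and 0.0933 per 1000. WT held 0 Mir21a loops beside 1061753 and 837661 arm inserts.

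Some of the remaining named hairpins are less certain as loops. Mir145a (96 inserts of 19 nt), Mir466h (66) and Mir8092 (70) were seen in Y971A/Y972A replicate 2 alone, and Mir466b-2 (54) in D1320A replicate 2 alone. The Mir145a and Mir466h inserts had both ends within 2 nt of the arm ends most used in WT, whereas the Mir466b-2 insert ended 5 nt inside the 3p arm. The Mir8092 insert is also found in Zfp518a, and Mir8092 had 0 arm inserts in Y971A/Y972A replicate 2. The Mir1843b insert is also found in Scarna3a. Of the 36 sequences, 10 are found in a transcript of another gene. For Mir21a, Mirlet7c-2, Mirlet7a-1 and Mir181b-1 that gene is the host (Vmp1, Lncppara, 6720427I07Rik and A430106G13Rik), and the repeats of Mir1187 (54 inserts) are found in 2099 or more genes. The last of the 29 hairpins, chosen after their values were seen, were Mir16-2 (19 inserts in WT replicate 2), Mir181b-1 (36 in D1320A replicate 2, from 2 nt inside the RefSeq 5p arm to the end of the loop), Mir466f-1 and Mir6546 (33 and 19 in D1320A replicate 1, the latter from 6 nt inside the 5p arm) and Mir1843b (10 in Y971A/Y972A replicate 2). Mir351 and Mir346 had 175 and 77 inserts, all under 15 nt. When folded with RNAfold, 32 of the 36 sequences, with 2673 of the 2760 inserts, spanned the apical loop of their hairpin. The rule admits only inserts centred near the hairpin midpoint, and the folded loop nearest that midpoint was taken. This count therefore follows largely from the rule, and no baseline was computed for it.

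The ends were compared with the arm ends most used in WT, which the choice of loop inserts did not use directly. The limits on centre and length still confine where an insert can start and end. Of the 649 hairpins with both RefSeq arms, 619 have a loop that is itself centred within 4 nt. No share expected from these limits was computed, so the shares below are a description. In WT replicate 2, 283 of 323 inserts (87.6%, 95% Wilson interval 83.6 to 90.8%) had both ends within 2 nt of the arms, and 213 had both exact. In hsDicer replicate 2 the count was 85 of 110 (77.3%, 68.6 to 84.1%), all 85 exact, and in Y971A/Y972A replicate 2 it was 848 of 918 (92.4%, 90.5 to 93.9%), 472 of them exact. In D1320A it was 250 of 617 (40.5%, 36.7 to 44.4%) and 182 of 353 (51.6%, 46.4 to 56.7%), with 0 exact in both. Many of these D1320A inserts were of Mirlet7c-2 (144 and 182), Mirlet7a-1 (256 and 0) and Mirlet7g (77 and 0). Their loops of 26, 29 and 34 nt cannot have both ends exact in an insert of 24 nt or less. For these let-7 hairpins the length limit and the position of the ends cannot be told apart in the D1320A shares. Other loops, by the RefSeq arms, fit the limit. The D1320A inserts of Mir28a, Mir16-1, Mir872 and Mir345 (loops of 16 to 20 nt) ended 4 to 7 nt past the loop. Those of Mir503 and Mirlet7c-1 ended 1 nt past and 1 nt before its end. The Mir181b-1 insert ended on it but began 2 nt inside the 5p arm. Past the limit, the D1320A inserts of Mirlet7c-2 and Mirlet7a-1 nearest the loop's end (25 to 30 nt) missed it by 1 nt. The cause was not tested.

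All 970 D1320A inserts of hairpins with both WT arm ends began within 2 nt of the end of the 5p arm. In D1709A replicate 1, 0 of 163 did, which allows up to 2.30%. Few sequences stand behind these shares, and D1320A is the only group with 20 or more such inserts in both libraries, so the difference between groups was not tested. Against the RefSeq arms the shares were 87.7% in WT replicate 2, 77.3% in hsDicer replicate 2, 98.6% in Y971A/Y972A replicate 2, and 41.5% and 56.6% in D1320A.

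**Figure D4:**
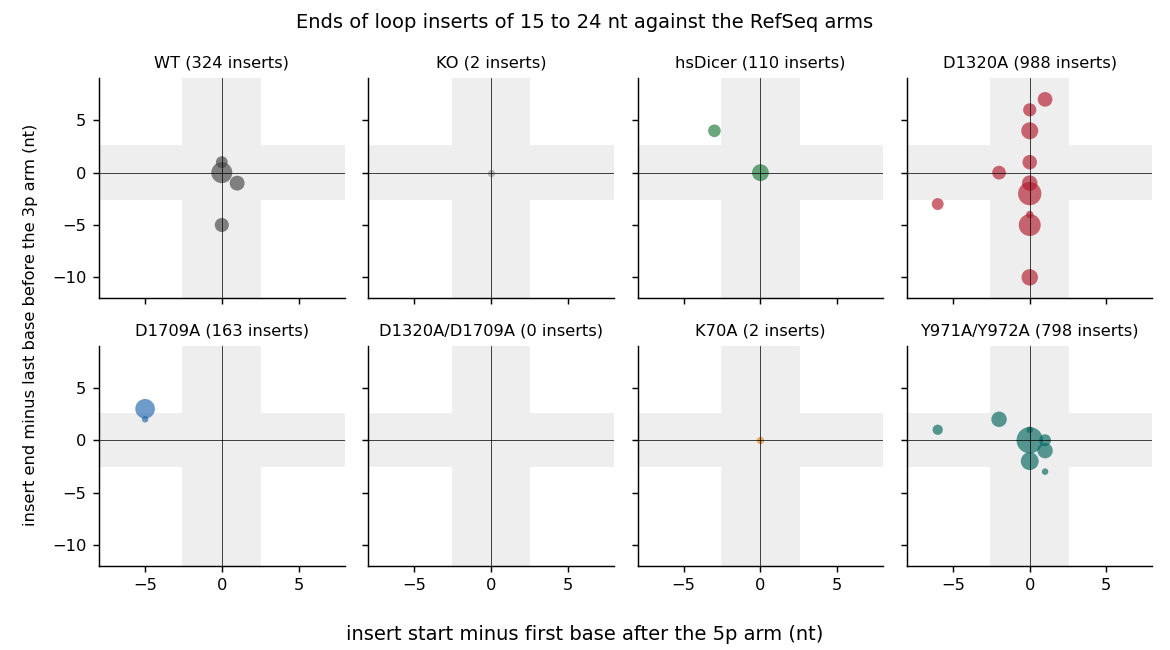
Position of the insert start relative to the first base after the 5p arm (x axis, nt) and of the insert end relative to the last base before the 3p arm (y axis, nt) for loop inserts of 15 to 24 nt in each group, with the area of a point growing with the number of inserts and bands of 2 nt around the RefSeq arm ends in grey. WT, hsDicer and Y971A/Y972A cluster at 0 on both axes, 885 of 988 D1320A inserts have a start of 0, with ends that range over the whole group from -10 to 7, and D1709A lies at -5 and 3.

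Inserts of 15 to 36 nt that start within 1 nt of the first base after the 5p arm showed where the 24 nt limit falls, over the 23 of 29 hairpins with both arms in RefSeq. D1320A had 11117 and 2161 such inserts that did not end within 1 nt of the loop's end (736 and 177 CPM), and 10482 and 1977 of them ran past the start of the 3p arm. In the other 14 libraries the highest counts were 155 in Y971A/Y972A replicate 2, 83 in WT replicate 2, 53 in hsDicer replicate 2, 42 in K70A replicate 2 and 33 in KO replicate 2. Many of these 23 hairpins were included because D1320A held their loop inserts, which favours D1320A in this count. The search was therefore repeated, as a check chosen after seeing the data, over the 626 hairpins with both RefSeq arms and no loop insert of 15 to 24 nt. D1320A held 111320 and 31390 such inserts there, of which Mir31 gave 83271 and 21279, and the other 14 libraries held 1 to 247.

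Mirlet7c-2 supplied 82.4% (95% Wilson interval 81.6 to 83.05%) and 81.5% (79.8 to 82.99%) of all D1320A inserts that start there. Of these D1320A inserts, 5.14% (4.75 to 5.56%) and 14.9% (13.6 to 16.4%) were 15 to 24 nt long. The share was 88.3% (84.6 to 91.2%) in WT replicate 2, 61.6% (53.3 to 69.3%) in hsDicer replicate 2 and 89.2% (86.9 to 91.2%) in Y971A/Y972A replicate 2. It was also low in K70A replicate 2 (2 of 44, 4.55%, 1.26 to 15.1%) and KO replicate 2 (2 of 35, 5.71%, 1.58 to 18.6%), where few inserts began at this base.

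**Figure D5:**
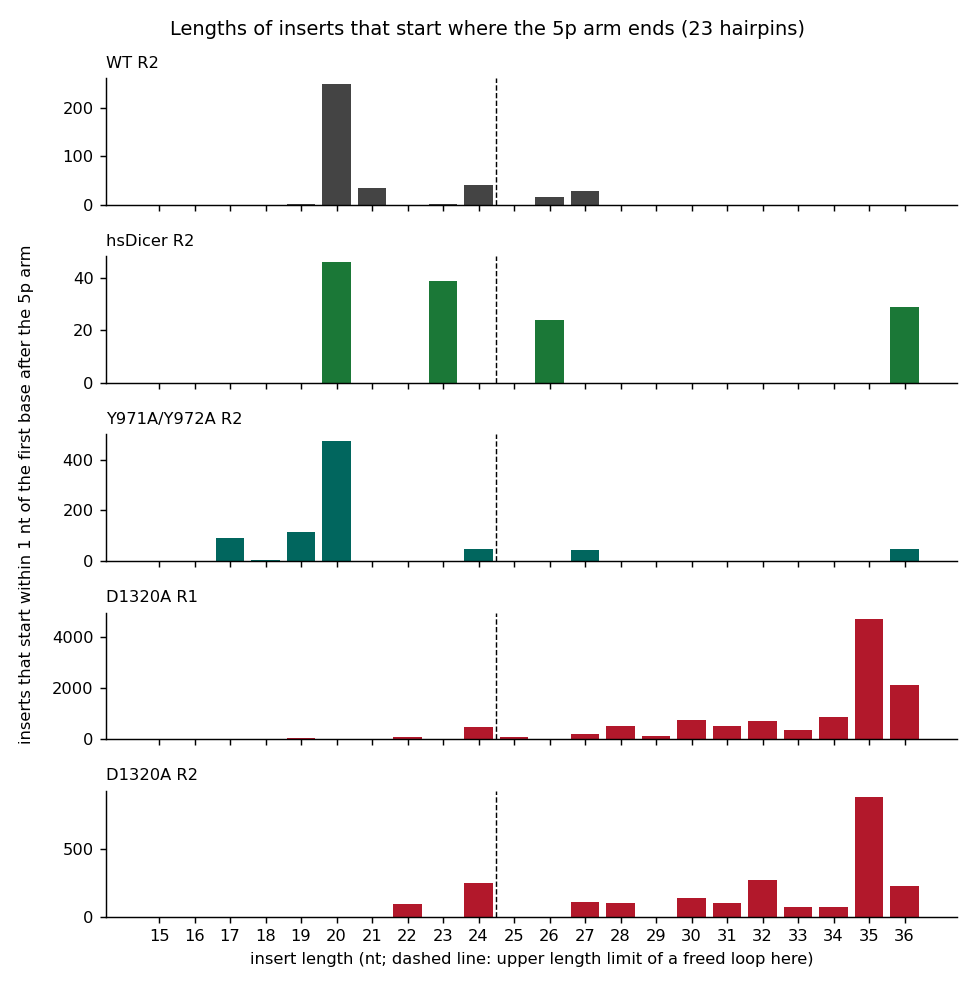
Number of inserts (y axis, a scale for each panel) that start within 1 nt of the first base after the 5p arm, by length in nt (x axis), summed over 23 hairpins in 5 libraries, with a dashed line at the 24 nt limit. WT, hsDicer and Y971A/Y972A replicate 2 peak at 20 nt, and D1320A has its highest bars at 35 and 36 nt or 32 and 35 nt, with 5.14% and 14.9% of its inserts at 24 nt or less.

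At the limits of the rule, D1320A held 510 and 306 inserts of 24 nt and 100 and 0 of 25 nt, and WT replicate 2 held 40 and 32. Centres over 4 to 6 nt from the midpoint added 479 and 186 inserts of 15 to 24 nt in D1320A, 347 in WT replicate 2, 238 in hsDicer replicate 2 and 122 in K70A replicate 2. Of those just outside, Mir669e gave 251, 207 and 122 in WT, hsDicer and K70A replicate 2, and Mir31 gave 155 and 63 in D1320A. Mir31, which follows the rule except for its distance from the midpoint, was thus seen in both D1320A libraries.

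Loops were not seen for most hairpins with abundant arms. Mir22, the hairpin with the most arm inserts in WT (5419773), had 0 loop inserts within the rule, as had Mir29b-1 and Mir29b-2, although 55 Mir22 inserts in D1320A replicate 1 lay just outside its centre limit. Of the 20 hairpins with the most WT arm inserts 5 had loops, and of the first 50 it was 12, beside 27 of the 371 hairpins with any WT arm insert. Among those 50, loops were seen for 0 of 5 with under 15 nt between the RefSeq arms, for 9 of 31 with 15 to 24 nt and for 3 of 7 with longer loops. Of the other lists, the miR-17-92 cluster and its paralogs had 0 of 15 hairpins with loops of 15 to 24 nt (Mir20a, Mir93, Mir19b-1 and Mir17 had 89, 65, 54 and 48 inserts just outside the centre limit), the miR-29 family 0 of 4, the miR-30 family 0 of 7, and the miRNAs made without Dicer, from mirtrons or from capped precursors 0 of 6. The mesenchymal and fibroblast list had 4 of 25 (Mir27a, Mir99a, Mir145a and Mir21a) with 1025 inserts, beside 29 of 1174 hairpins in all. These shares are not of like hairpins, because 22 of the 25 had WT arm inserts but only 371 of the 1174. The 12 of 50 above, for the hairpins with the most arm inserts, is a closer yardstick.

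Loops of let-7 precursors are known for the motif GGAG, which the protein LIN28 binds. On the strand read, GGAG was found in the central 24 nt of 135 of 1174 hairpins (11.5%) and of 5 of 12 let-7 hairpins (41.67%). The loop inserts of 5 of the 29 hairpins (17.24%) held it, among them Mir149 and Mir8092, which are not of the let-7 family. This share was counted in the inserts and not in a central 24 nt, so it cannot be set against the other 2.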

How the data were processed

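Small RNA libraries (8 groups, 2 libraries each) were deposited as counts of distinct untrimmed reads, per the file contents; no aligner or trimming by the authors is named in the labels. The 3′ adapter named in the labels' protocol was located by its first 12 nt, or by 5 nt or more at the read end. Inserts were matched without mismatch to 1174 hairpins of GENCODE M21 (GRCm38), of which 957 matched RefSeq by symbol. Levels (CPM) are per 1000000 inserts of 15 nt or more. Arm inserts were 18 to 26 nt, and WT arm ends needed 10 inserts. Loops and arms were fitted together with edgeR 4.0.16 (quasi-likelihood, R 4.3.3, all 8 groups, features with 20 or more inserts, Benjamini-Hochberg adjusted p under 0.05), with DESeq2 1.42.0 as an alternative. The code of the fit was run on simulated data with less spread between libraries than these, so that run does not show how the fit performs here. Single values were compared by exact permutation (scipy 1.17.1), and hairpins folded with RNAfold 2.7.2. Shares have 95% Wilson intervals, and for shares of whole libraries these reach at most 0.0251 percentage points to either side. Because nothing says that replicates were separate cultures, p-values measure only the spread between these libraries, which may be technical. Inserts that matched several hairpins (306 at centres) were left out. Named were the 15 hairpins with the highest mean level, loops past the threshold and 2 to 4 members of each list. Members, lists and tests were chosen with earlier results of these data known. One loop sequence is not printed. Alternatives were scaling, filters, length and centre limits, arm overlap, shared copies, matches to other genes (chosen after seeing the data), each library left out, and a replicate block.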

Additional observations from a re-analysis of the deposited data

How the results depend on the processing

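Few inserts stand behind these results: 7 libraries held 0 loop inserts of 15 to 24 nt and 28 of 36 sequences stood in 1 library. D1320A against hsDicer and against KO kept its direction under every alternative tried for the level and for loops per 1000 arm inserts, and without each library in turn. The exact test cannot pass 0.05 in any comparison, so only directions can change. Differences in CPM of loops reversed at 15 to 24 nt for K70A against hsDicer (-2.75) and D1320A/D1709A against KO (-0.0626), with centres within 2 nt for K70A (-0.403), and without inserts reaching 3 nt into an arm for D1320A/D1709A against hsDicer (0.762). Differences in loops per 1000 arm inserts reversed at 15 to 24 nt for KO against WT (-0.0519), hsDicer against KO (0.0469), hsDicer against WT (-0.00507), D1320A/D1709A against hsDicer (-0.0962), K70A against hsDicer (-0.0910) and D1320A/D1709A against KO (-0.0493). They reversed with centres within 2 nt for hsDicer against WT (-0.00365) and K70A (-0.0249), within 6 nt for K70A (-0.00805) and D1320A/D1709A against KO (-0.0475), and without inserts reaching into an arm for hsDicer against WT (-0.0185) and D1709A against KO (-0.000641). The cause was not tested.

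Leaving out each library in turn, the level difference ranged from -14.7 to 1.89 for KO against WT, -1.97 to 5.22 for hsDicer against KO, -13.1 to 3.52 for hsDicer against WT, 38.9 to 48.8 for D1320A, -0.136 to 12.4 for D1709A, -3.79 to 3.40 for D1320A/D1709A, -3.60 to 8.93 for K70A and -3.75 to 68.4 for Y971A/Y972A, each against hsDicer, and 40.5 to 50.4, 1.49 to 13.99 and -2.12 to 4.98 for D1320A, D1709A and D1320A/D1709A against KO. For loops per 1000 arm inserts the ranges were -0.0823 to 3.24, -3.23 to 0.0952 and -0.108 to 0.133 for the first 3, 2.62 to 7.58, 2.13 to 5.15, -0.105 to 3.91, -0.120 to 0.240 and -0.121 to 6.35 against hsDicer, and 1.06 to 6.01, 0.414 to 3.74 and -1.67 to 2.35 against KO, in the same order.

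DESeq2 called 2 loops in D1709A against hsDicer, 1 in D1320A/D1709A against hsDicer and 2 in D1709A against KO. Under all other settings, the replicate block included, edgeR called 0 loops in all 11 comparisons. Same-numbered libraries correlated by more than 0.1 in 25 of 28 pairs of groups (0.0655 to 0.435 over 213 arm features), short of all 28, so the numbers were not taken to pair them, since the labels name no shared culture or day. The share with both ends at the arms could not be compared between groups under any setting, and has no alternative value.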
